A study of Mus musculus with 5 samples.

Results

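H3K27me3, the repressive trimethylation of histone H3 at lysine 27, was followed at 9 genes of body position in dermal fibroblasts of the mouse: the T-box genes Tbx1, Tbx2, Tbx3, Tbx4, Tbx5, Tbx15, Tbx18 and Tbx20 and the homeobox gene Pitx1. The genes were chosen by name, with earlier results of these data known. All 9 were found among the 55450 annotated genes, of which 21951 are protein-coding. ChIP-seq peak lists were available for 4 libraries of wild-type skin, 2 labelled E14 and 2 labelled E17. The study's text gives the stages as E14.5 and E18.5, and the labels' names are used here. The labels name no transgene and no treatment. The study's methods give a C57BL/6 background and dermal cells that were expanded in culture before the ChIP, in AmnioMAX medium, whereas the labels give DMEM with serum. The sources also differ on how chromatin was fragmented, by sonication in the labels and by enzyme in the methods. The methods name back skin for the histology but no body region for the cultured cells. They give n = 2 for each ChIP sample without saying how many embryos a culture came from, so the spread between the 2 libraries of a stage may be technical. In cultured cells, fewer cells with the mark and less of the mark in each cell cannot be told apart.

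Polycomb repressive complex 2 deposits H3K27me3 over the CpG-rich starts of developmental regulators that a cell type does not use, often as a domain that spans the whole gene. T-box proteins bind DNA through a shared domain, and most members of the family are known for where in the body they act. Tbx5 directs outgrowth of the forelimb and heart chamber formation, and Pitx1 and Tbx4 act in the hindlimb. Tbx2 and Tbx3 are repressors with roles at limb margins and in the heart, and Tbx3 also acts in the mammary placode. Tbx15 sets the boundary between dorsal and ventral skin colour from the dermis. Tbx18, its close relative, acts in somites, the epicardium and the dermal condensates of hair follicles. Tbx1 patterns the pharyngeal arches, and Tbx20 acts in heart muscle.

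The E14 lists held 21546 and 16574 peaks that covered 52.8 and 32.1 Mb. The E17 lists held 10429 and 7107 peaks that covered 20.0 and 14.3 Mb, so the E17 lists were shorter as a whole, and within each stage replicate 2 was the shorter. A base outside a peak did not pass the threshold of its list, which does not mean that the mark was absent. As a check of the cell type label, 0 of 10 genes used by dermal fibroblasts, among them Col1a1, Pdgfra and Twist2, showed a peak inside the 3000 bp on either side of its start sites, in any library. Of 17 genes of other skin, muscle and nerve cells, 9 had such a peak in both E14 libraries, 6 in all 4 libraries and 8 in none. The unmarked ones include Krt5, Krt14 and Trp63 of keratinocytes, whereas Cdh1, also listed for keratinocytes, was marked in all 4 libraries. The keratinocyte genes went both ways, so the check does not settle whether fibroblasts are set apart from keratinocytes. Of all 21951 protein-coding genes, 5343 and 4532 had such a peak in the E14 libraries, so having none is the usual case. A repressive mark does not measure expression, so these counts are no measure of purity.

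Both E14 libraries showed peaks at all 9 genes within 3000 bp of their start sites, and both E17 libraries at 7. The exceptions were Tbx15 and Tbx18, which had none in either E17 list. Among all protein-coding genes, 12.0% had such a peak in all 4 libraries, against 77.8% of these 9. The 9 were chosen with earlier results of these data known, so this describes the list and is no test of enrichment. The map of peaks around the gene starts shows 3 forms, which do not hold in every library. A wide block lay over the start of Pitx1, Tbx4, Tbx20, Tbx1, Tbx5 and Tbx2. The start of Tbx2 lay in no peak in E14 replicate 2, and that of Tbx5 in none in E17 replicate 2. Flanks lay on either side of an uncovered start at Tbx3, where the nearest downstream peak of E17 replicate 2 was 10764 bp away. Peaks were found near the start at E14 only at Tbx15 and Tbx18.

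**Figure D1:**
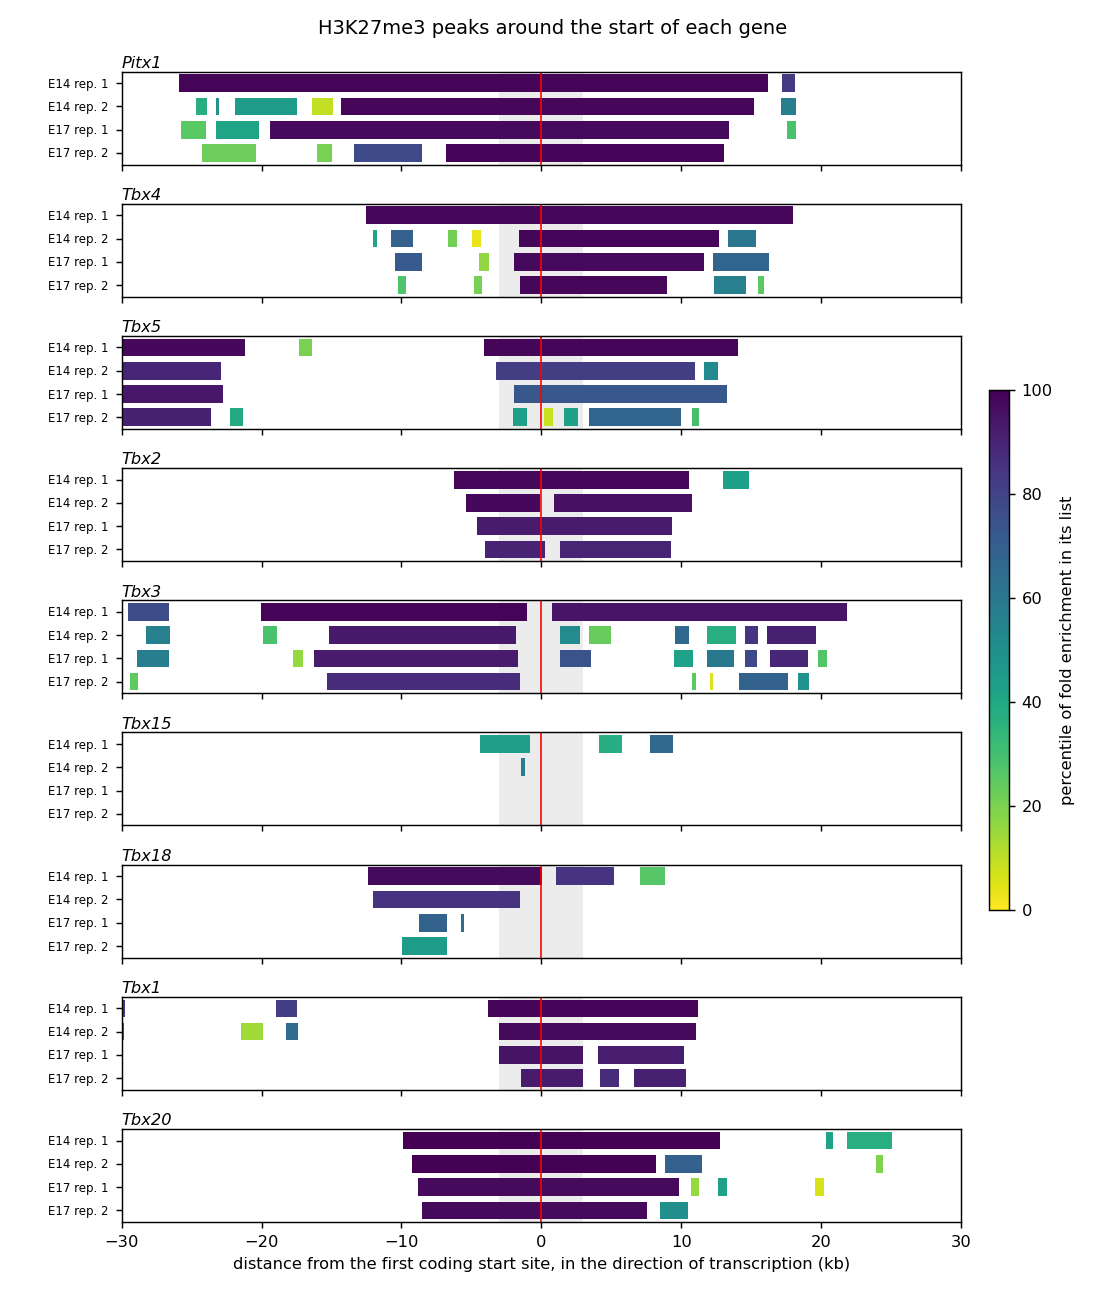
H3K27me3 peaks within 30 kb of the first coding start site of each gene (x axis, kb in the direction of transcription, red line at the start site, grey band within 3 kb), with 1 row per library. Colour gives the percentile of a peak's fold enrichment within its own list. Wide dark blocks lie over the starts of Pitx1, Tbx4 and Tbx20 in all 4 libraries, and Tbx15 has no peak in either E17 library.

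Pitx1, the hindlimb selector gene (chromosome 13 from 55825051 to 55836192, minus strand, GRCm38), lay wholly inside a single peak in every library. That peak was 42112 and 29487 bp wide in the E14 lists and 32786 and 19886 bp wide in the E17 lists. It ranked 28 and 29 by width among all peaks of the E14 lists, and 13 and 46 in the E17 lists. The widths of the stages overlapped, and all 11142 bp of the gene were covered throughout, exons and introns alike. Beyond 10 kb from the start, more was covered upstream than downstream. Between 10 and 30 kb upstream of the start, peaks covered 79.5% and 56.2% at E14 and 71.2% and 41.8% at E17, whereas in the same span downstream they covered 35.8% and 31.3% at E14 and 20.1% and 15.3% at E17.

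Tbx4, which acts with Pitx1 in the hindlimb, has 3 start sites on chromosome 11 (gene from 85886422 to 85916097, plus strand). Peaks covered 15643 and 13635 bp of the 15643 bp around them at E14, and 13913 and 10837 bp at E17. The stages overlapped, since E17 replicate 1 lay above E14 replicate 2 (14639 ± 1420 against 12375 ± 2175 bp, SD, n = 2, exact permutation test, two-sided, p = 0.667). The widest peak over the start measured 30525 and 14319 bp at E14 and 13533 and 10535 bp at E17. Upstream of the start, E14 replicate 1 stood apart from the other 3 libraries. Peaks covered 100% of the stretch from 3 to 10 kb upstream of the start in that library, 29.6% in E14 replicate 2, and 30.9% and 12.9% in the E17 libraries.

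At Tbx5, the forelimb gene (chromosome 5 from 119832668 to 119885219, plus strand), peaks covered all 9488 bp around the start sites in both E14 libraries. In the E17 libraries they covered 8428 and 5697 bp (9488 ± 0 against 7062 ± 1931 bp, SD, n = 2, exact permutation test, two-sided, p = 0.333). With 2 libraries against 2, this is the smallest p the test can give, here and below, so no difference at a single gene can pass a test at the usual threshold. The stages did not overlap. A single peak of 18143, 14180 and 15218 bp lay over the start in the first 3 libraries, and in E17 replicate 2 it was broken into 5 pieces, of which the widest was 6606 bp and lay inside the gene. The signal here ranked lower than at both hindlimb genes in 3 libraries, and in E14 replicate 1 it ranked between Pitx1 and Tbx4. By fold enrichment, its strongest peak reached percentile 98.5 and 82.4 in the E14 lists and percentile 73.0 and 68.0 in the E17 lists. The 52552 bp of the gene were covered to 29.9% and 22.8% at E14 and to 25.3% and 16.6% at E17.

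Tbx2 (chromosome 11 from 85832551 to 85841948, plus strand) differed more between replicates than between stages near its start site and in its body. Around its single start site, peaks covered 6001 and 4995 bp at E14 and 6001 and 4987 bp at E17, of 6001 bp (5498 ± 711 against 5494 ± 717 bp, SD, n = 2, exact permutation test, two-sided, p = 1). In replicate 2 of both stages the block was split near the start site by a short stretch without a peak, and in replicate 1 of both it was continuous. The gene body was covered to 100% and 90.1% at E14 and to 99.3% and 88.0% at E17.

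Tbx3, the paralogue of Tbx2 (chromosome 5 from 119670669 to 119684724, plus strand), had a strong upstream flank and an uncovered start. The nearest peak downstream stood at the 94.6 percentile in E14 replicate 1, but at 52.7 in E14 replicate 2, 74.6 in E17 replicate 1 and 25.2 in E17 replicate 2. Its 3 coding start sites lay in no peak in any of the 4 libraries. The nearest upstream peak ended 1043 and 1786 bp away at E14 and 1652 and 1552 bp away at E17, counted from the first start site. That upstream peak was 18976 and 13416 bp wide at E14 and 14601 and 13806 bp at E17, and stood at the 99.1, 93.2, 92.8 and 87.1 percentile. It lies in the antisense gene Tbx3os1, and the stretch from 3 to 10 kb upstream was covered to 100% in all 4 libraries. The gene itself differed much more between libraries. Peaks covered 94.7% and 43.2% of the body at E14 and 38.8% and 3.26% at E17 (9694 ± 5126 against 2956 ± 3533 bp, SD, n = 2, exact permutation test, two-sided, p = 0.333). The stages did not overlap, but E14 replicate 2 stood far closer to E17 replicate 1 than to its own replicate. Around all 5 annotated start sites the covered length was 13801 and 5950 bp at E14 and 5656 and 1907 bp at E17. Around the coding start sites alone the stages overlapped.

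Tbx15 (chromosome 3 from 99240381 to 99354259, plus strand), the dermal gene of dorsal and ventral skin, carried the least of the mark. Near its start sites, peaks covered 2193 and 267 bp at E14 and 0 bp in both E17 libraries (1230 ± 1362 against 0 ± 0 bp, SD, n = 2, exact permutation test, two-sided, p = 0.333). The E14 peaks were of middling rank, at the 44.5 and 58.6 percentile, and ended 808 and 1196 bp upstream of the first start site. The 267 bp peak of replicate 2 lies wholly within the last part of the neighbouring gene Wars2, and so does most of the 3573 bp peak of replicate 1. Inside the gene, E14 replicate 1 had 2 intronic peaks of 1653 and 1625 bp, and the other 3 libraries had none. In the E17 lists the nearest peaks lay 664064 and 664058 bp downstream of the first start site, and those upstream lay further away.

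Tbx18 (chromosome 9 from 87702800 to 87731260, minus strand) also had no E17 peak near its start sites, but its E14 peaks were wider and ranked higher than those of Tbx15. At E14, peaks covered 5772 and 1484 bp of 6764 bp, and at E17 they covered 0 bp in both libraries (3628 ± 3032 against 0 ± 0 bp, SD, n = 2, exact permutation test, two-sided, p = 0.333). The E14 peaks over the upstream side were 12422 and 10486 bp wide and stood at the 97.4 and 84.8 percentile. The medians over all marked protein-coding genes in these lists were 83.7 and 82.1, so only the peak of replicate 1 ranked far above its median. Only that of replicate 1 reached the start site, and only in replicate 1 did peaks lie in the gene, where they covered 5945 bp, mostly intron. The E17 lists were not empty further upstream. E17 replicate 1 had peaks of 2065 and 207 bp and E17 replicate 2 a peak of 3247 bp. The nearest of them ended 5508 and 6723 bp upstream of the start. A stretch of 2061 bp, from 87737983 to 87740043, lay in peaks of all 4 libraries, over Gm37374, a transcript that the annotation marks as still to be tested by experiment.

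Tbx1 (chromosome 16 from 18580979 to 18590671, minus strand) was covered throughout at E14, with 13344 of 13344 bp around its start sites in both libraries. At E17 the covered length was 12052 and 9436 bp (13344 ± 0 against 10744 ± 1850 bp, SD, n = 2, exact permutation test, two-sided, p = 0.333). The stages did not overlap. A single peak of 15029 and 14076 bp at E14 stood in place of 2 peaks in E17 replicate 1 and 3 in E17 replicate 2, of which the widest measured 6117 and 4422 bp. The first coding start site lay in a peak in all 4 libraries.

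Tbx20 (chromosome 9 from 24718138 to 24774303, minus strand), a gene of heart muscle, had the strongest peak of the 9 in both E14 lists. That peak ranked 63 of 21546 and 61 of 16574 by fold enrichment at E14, and 264 of 10429 and 191 of 7107 at E17. Its width was 22703 and 17416 bp at E14 and 18668 and 16065 bp at E17. Peaks covered all 10624 bp around the start sites in 3 libraries and 10541 bp in E17 replicate 2, a difference of -0.391% (10624 ± 0 against 10582 ± 58.7 bp, SD, n = 2, exact permutation test, two-sided, p = 1). The block lay over the start of the gene, and further inside it the libraries had small peaks whose positions differed.

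The stages were then compared over the 9 genes together. The covered length near start sites was lower in both E17 than in both E14 libraries at 5 genes, namely Tbx1, Tbx3, Tbx5, Tbx15 and Tbx18, and it was higher in both at none. This is 55.6% of the 9, close to the 58.1% of all genes with a peak in any library. Without E17 replicate 1, the covered length was lower at 8 of the 9. Of the 9 genes marked in both E14 libraries, 2 (22.2%) had no peak in either E17 library, against 25.1% of all such genes. In the gene body, the covered length was lower in both E17 libraries at 2 genes, Tbx1 and Tbx3, against 57.1% of all genes with a peak in the body in any library. That count is 8 without E14 replicate 2 and 6 without E17 replicate 1. The counts near start sites also depend on the length of the lists. For lists of equal number, each list was cut to its peaks of highest −log10 q-value. There, 3 genes were lower in both E17 libraries and Tbx18 alone was marked at E14 only. With lists of equal covered length, cut by the same ranking, the counts were 1 (Tbx1) and 0.

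Among the 7 genes marked in all 4 libraries, 3 had a covered length near start sites that was lower in both E17 libraries, against 74.0% of all genes with a peak in all 4. Their mean covered length at E17 was 84.5% of that at E14 at the median gene. Over the 3871 genes marked in all 4 libraries this value was 64.0% at the median, with the middle 50% of genes between 44.8% and 83.6%. The width of a block can differ between libraries without any loss inside the window, as at Pitx1, so these values are a description of the windows only.

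**Figure D2:**
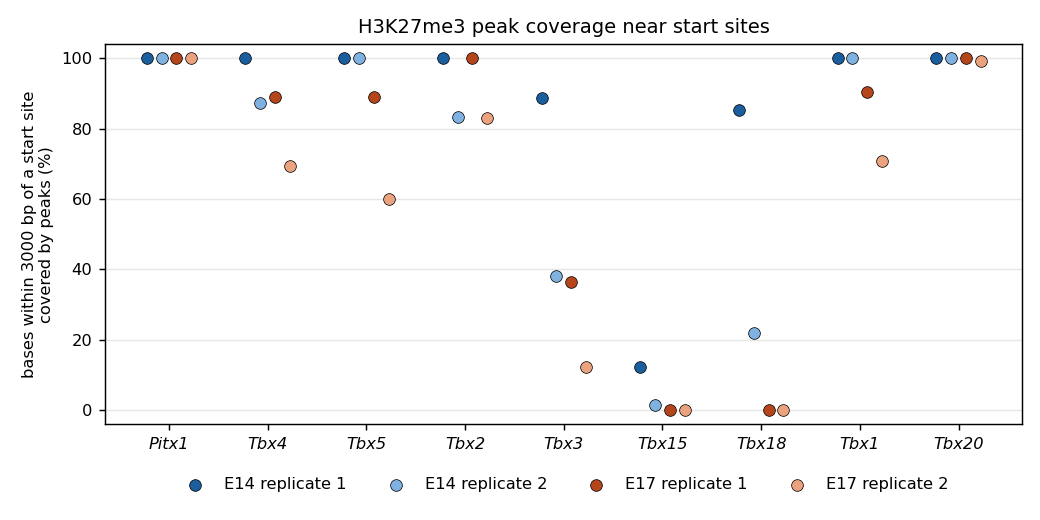
Share of the bases within 3000 bp of a start site that peaks covered (y axis, %), for each gene and library, with 1 point per library. Pitx1 is at 100% in all 4 libraries, Tbx3 lies between 12.2% and 88.6%, and both E17 points of Tbx15 and Tbx18 are at 0.

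Ordered by the share of the windows covered, Pitx1, Tbx1, Tbx5 and Tbx20 stood at 100% at E14. They were followed by Tbx4 (93.6% ± 9.08, SD, n = 2) and Tbx2 (91.6% ± 11.9), which did not differ beyond their spread. Both reached 100% in E14 replicate 1, as did the genes above them. Next came Tbx3 (63.4% ± 35.6) and Tbx18 (53.6% ± 44.8), which overlapped, and last Tbx15 (6.83% ± 7.56). At E17 the order was Pitx1 (100%), Tbx20 (99.6% ± 0.552), Tbx2 (91.6% ± 11.9), Tbx1 (80.5% ± 13.9), Tbx4 (79.1% ± 13.9), Tbx5 (74.4% ± 20.4) and Tbx3 (24.3% ± 17.01). From Pitx1 to Tbx5, neighbours in this order did not differ beyond their spread. For comparison, the median protein-coding gene with a peak had 23.7% and 22.2% of its windows covered at E14, and 20.2% and 19.3% at E17.

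The strength of the peaks was compared by rank within each list, since fold enrichment from separate lists is not on a common scale. By this measure the median of the 9 genes was percentile 98.5 and 97.4 in the E14 lists, taking the strongest peak within each gene's windows. For the 7 genes still marked at E17 the median was percentile 95.0 and 92.6. Over all marked protein-coding genes, the medians were 83.7 and 82.1 at E14 and 78.6 and 72.9 at E17. Pitx1, Tbx4 and Tbx20 kept a peak above the 97 percentile in every list. Tbx5 had the lowest rank of the 7 genes at E17, and Tbx15 the lowest of the 9 at E14.

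**Figure D3:**
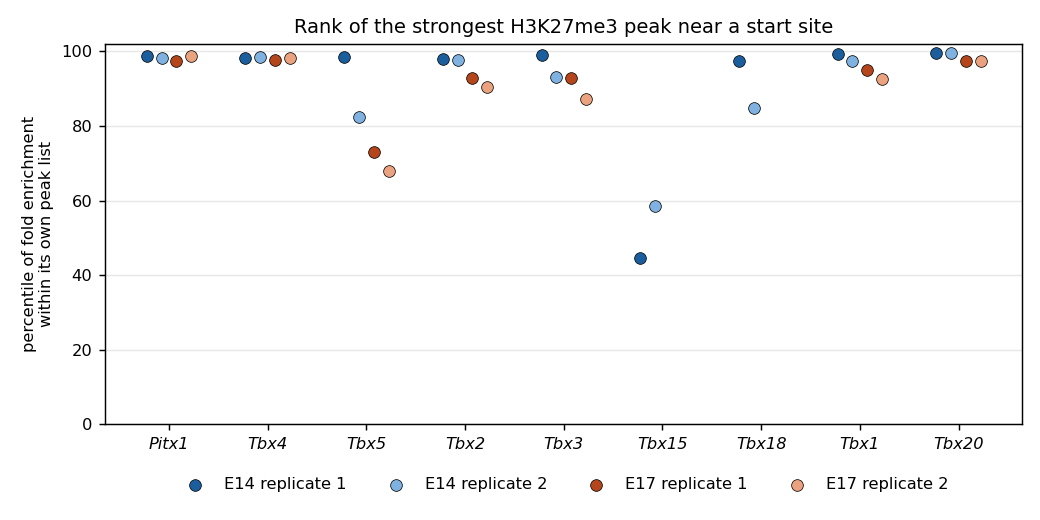
Percentile of the strongest peak within 3000 bp of a start site among all peaks of its own list, by fold enrichment (y axis), for each gene, with 1 point per library. A missing point means that the list has no peak there, as for Tbx15 and Tbx18 at E17. The points of Pitx1, Tbx4 and Tbx20 lie above 97, and those of Tbx5 spread from 68.0 to 98.5.

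The first coding start site lay in a peak in all 4 libraries at 4 of the 9 genes, Pitx1, Tbx1, Tbx4 and Tbx20. That is 4 of the 7 genes marked throughout, where 45.0% of all such protein-coding genes had their first start site in a peak in all 4 libraries. Tbx3 was the one of the 7 whose start lay in no peak in any library, which was seen at 24.8% of all such genes. Tbx2 and Tbx5 each lacked it in 1 library, by a gap of 1006 bp and of 1236 bp. At Tbx3 the gap around the start measured 1780 and 3143 bp at E14 and 3005 and 12315 bp at E17.

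The 250 bases upstream of the first coding start site are shown for the 3 genes whose start lay in a peak in at most 1 library, and for the 2 with the widest unbroken peak over the start in E17 replicate 2. They are written 5′ to 3′ in the direction of the gene, with CpG dinucleotides, the usual setting of Polycomb domains, in capitals. They were read from RefSeq's GRCm38 (mm10) assembly and lie at chr5:119670419-119670668 for Tbx3 (plus strand), chr3:99240131-99240380 for Tbx15 (plus strand), chr9:87731261-87731510 for Tbx18 (minus strand), chr13:55836193-55836442 for Pitx1 (minus strand) and chr9:24774304-24774553 for Tbx20 (minus strand).
Tbx3: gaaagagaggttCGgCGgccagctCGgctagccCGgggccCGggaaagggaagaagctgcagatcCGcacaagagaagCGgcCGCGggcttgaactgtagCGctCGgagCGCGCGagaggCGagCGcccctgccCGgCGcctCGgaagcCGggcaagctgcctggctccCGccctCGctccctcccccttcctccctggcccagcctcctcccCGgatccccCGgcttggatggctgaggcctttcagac
Tbx15: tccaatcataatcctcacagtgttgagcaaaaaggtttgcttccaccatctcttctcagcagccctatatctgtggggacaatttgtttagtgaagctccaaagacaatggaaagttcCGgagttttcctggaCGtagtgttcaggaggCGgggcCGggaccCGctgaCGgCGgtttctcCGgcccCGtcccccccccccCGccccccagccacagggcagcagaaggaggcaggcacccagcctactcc
Tbx18: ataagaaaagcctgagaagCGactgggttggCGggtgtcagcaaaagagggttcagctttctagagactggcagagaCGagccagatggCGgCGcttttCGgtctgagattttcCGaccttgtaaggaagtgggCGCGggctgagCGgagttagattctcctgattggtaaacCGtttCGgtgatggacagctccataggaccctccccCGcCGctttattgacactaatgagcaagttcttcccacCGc
Pitx1: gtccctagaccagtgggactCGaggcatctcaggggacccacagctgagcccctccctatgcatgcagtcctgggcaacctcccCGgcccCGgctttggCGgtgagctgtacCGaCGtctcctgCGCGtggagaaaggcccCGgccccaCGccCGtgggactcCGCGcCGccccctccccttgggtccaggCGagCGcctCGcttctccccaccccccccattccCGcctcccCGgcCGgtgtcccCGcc
Tbx20: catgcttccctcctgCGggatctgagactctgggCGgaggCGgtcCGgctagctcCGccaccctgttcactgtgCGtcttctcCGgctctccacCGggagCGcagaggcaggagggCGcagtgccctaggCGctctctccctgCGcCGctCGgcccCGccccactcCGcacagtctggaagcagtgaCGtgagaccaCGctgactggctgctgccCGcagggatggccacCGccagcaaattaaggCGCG
These stretches hold 24 CpG at Tbx3, 10 at Tbx15, 15 at Tbx18, 21 at Pitx1 and 22 at Tbx20. Within 500 bp on either side of the start, the counts were 82 at Tbx3, 26 at Tbx15, 55 at Tbx18, 68 at Pitx1 and 58 at Tbx20. Tbx2 had 94, Tbx4 49, Tbx1 47 and Tbx5 25. The median over 21938 protein-coding genes was 42, and over the 2645 of them marked in all 4 libraries it was 55. Tbx3, with an uncovered start, has the next highest count after Tbx2, and Tbx5, whose start was covered in 3 libraries, has the lowest. The core T-box motif AGGTGTGA was found on neither strand in the 250 bases upstream of any of the 9 genes, and in 1.01% of all these stretches.

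The stretch of each gene with 10 kb on either side was then read base by base. Of the bases in peaks of both E14 libraries, the share that was in peaks of all 4 libraries was 82.7% at Tbx20, 81.7% at Pitx1, 79.7% at Tbx2, 66.0% at Tbx1, 65.5% at Tbx4, 61.3% at Tbx5, 60.1% at Tbx3, 24.3% at Tbx18 and 0% at Tbx15. In the other direction, between 92.8% and 100% of the bases in peaks of both E17 libraries were also in peaks of both E14 libraries, at each of the 8 genes with any such base. No base at any of the 9 genes lay in peaks of both E17 libraries and neither E14 library. The E17 blocks lay largely inside the E14 blocks. This is no trait of the 9 genes alone. Of 3945 annotated genes marked near their starts by both E17 lists, 3871 were marked in all 4 libraries. That count is of genes, and the share of bases over all genes was not computed. The E17 lists were also shorter as a whole. At Tbx20 the bases shared by all 4 libraries formed a run of 16065 bp over the start, and at Pitx1 a run of 19886 bp.

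**Figure D4:**
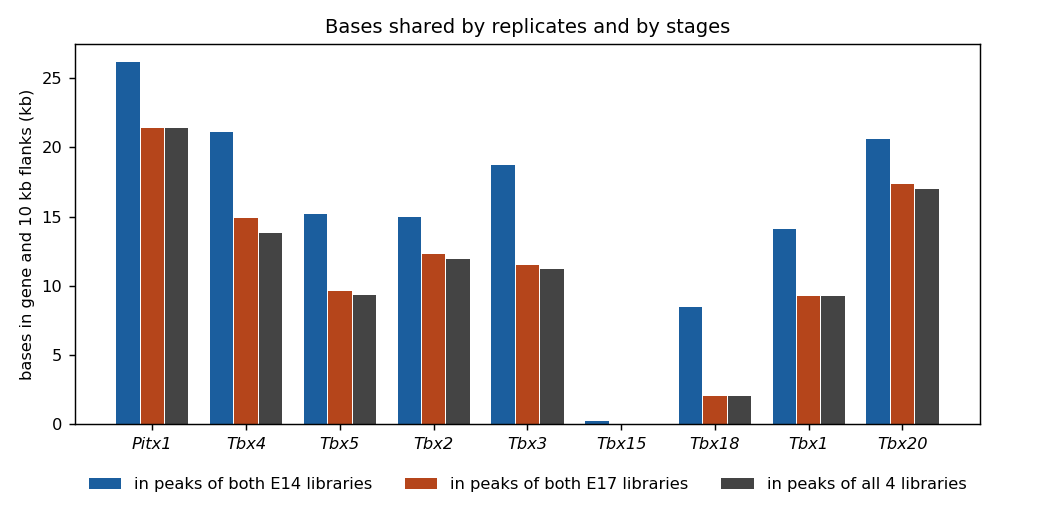
Bases of each gene and its 10 kb flanks that lay in peaks of both E14 libraries, of both E17 libraries and of all 4 libraries (y axis, kb, bars from 0). At each gene the bar for all 4 libraries is close to the E17 bar, and Tbx15 has bases in the E14 bar only.

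The genes lie in part as linked pairs, Tbx2 with Tbx4 on chromosome 11 and Tbx3 with Tbx5 on chromosome 5, which arose from an ancient duplication. The 44473 bp between Tbx2 and Tbx4 were covered to 35.0% and 13.6% at E14 and to 10.2% and 6.02% at E17. The 147943 bp between Tbx3 and Tbx5 were covered to 28.9% and 22.0% at E14 and to 19.3% and 17.3% at E17. In both stretches the stages did not overlap. The E17 lists were shorter as a whole, and 58.1% of all genes with a peak had less covered near start sites in both E17 libraries. The share over other stretches between genes was not computed. A separate block of 18255, 16324, 16006 and 9379 bp lay upstream of Tbx5, between it and Tbx3. In the E17 lists this block stood at the 93.9 and 90.8 percentile, above the peak over Tbx5 itself.

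Most of the next protein-coding genes on either side had no peak near a start site. This is the usual case, since 5343 and 4532 of all 21951 protein-coding genes had such a peak in the E14 libraries. No peak lay near a start site of Gnb1l next to Tbx1, of Wars2 or Spag17 next to Tbx15, of Cep162 next to Tbx18, of Med13l, Rbm19 and Brip1 beyond the linked pairs, of Gm10181 next to Tbx20, or of Catsper3 and H2afy next to Pitx1, in any library. The exceptions with a peak in both E14 libraries were Gp1bb, 29645 bp from Tbx1, with 2807 and 1784 bp covered at E14 and 0 bp at E17, and Dpy19l2, 21844 bp from Tbx20, with 4614 and 2543 bp at E14 and 2809 and 2386 bp at E17. Bcas3, Gm11444 and Nt5e had a peak in 1 E14 library. Several noncoding genes lie under the blocks. Tbx3os2, downstream of Tbx3, had 6124 and 4414 of its bases in peaks at E14 and 4251 and 3901 at E17. Gm28760, at the start of Pitx1, was covered over all its 736 bp in every library.

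Other T-box and Pitx genes were counted in the same way. Of 10, 5 were marked in all 4 libraries: T, the mesoderm gene of gastrulation, Eomes and Tbr1, which act in the developing brain, Tbx21 of T cells, and Pitx3 of the lens and midbrain. Tbx22 had a peak at E14 only, with 3125 and 3158 bp covered at E14 and 0 bp at E17. Tbx10 had one in replicate 1 of each stage, with 3295 and 447 bp. Tbx6, Tbx19 and Mga had none in any library. The covered length was lower in both E17 libraries at 5 of the 7 genes with any peak, against 58.1% of all such genes. The 5 of 10 marked in all 4 libraries stand against 12.0% of protein-coding genes. This list was also chosen with earlier results known, so these shares are a description only. Eomes had 6650 bp covered near its start sites in each library, but in its body 7921 and 7057 bp were covered at E14 and 6473 and 5876 bp at E17. Pitx3, a relative of Pitx1, had 14640 and 14601 bp at E14 and 9129 and 6379 bp at E17, near its start sites.

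**Figure D5:**
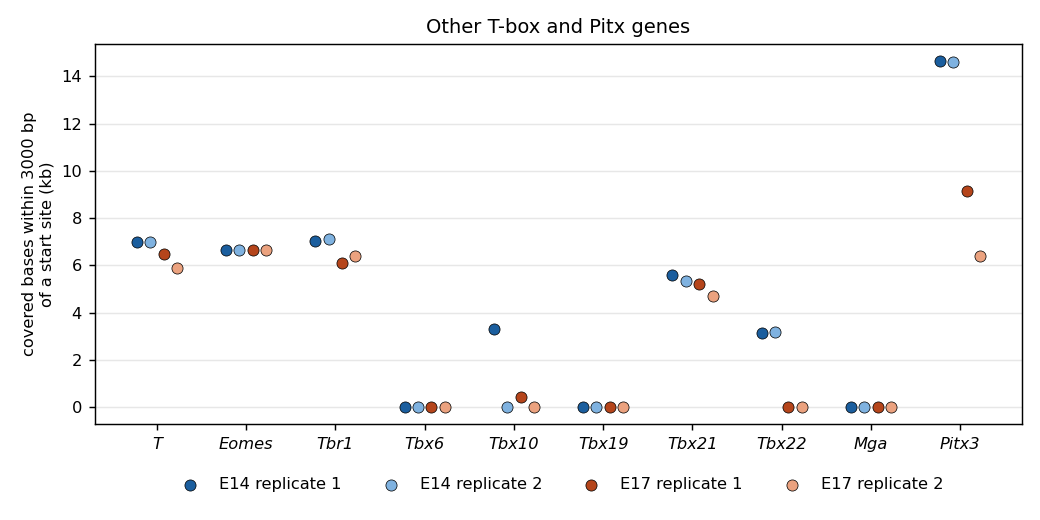
Covered bases within 3000 bp of a start site (y axis, kb) at the 10 other T-box and Pitx genes, with 1 point per library. Eomes is level at 6650 bp, Tbx22 has no E17 bases, and Tbx6, Tbx19 and Mga are at 0 in all 4 libraries.

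Of 18 genes that act with these factors in limb, heart or skin, 12 were marked in all 4 libraries, 2 at E14 only and 4 in none. The covered length was lower in both E17 libraries at 9 of the 14 with a peak. These shares are 66.7% marked in all 4 libraries, against 12.0% of protein-coding genes, in a list chosen with earlier results known. The share lower at E17 is 64.3%, near the 58.1% of all genes with a peak in any library. The heart factor Nkx2-5 and the limb genes Fgf8, Sall1 and Lmx1b had the same covered length near their start sites in every library, which says nothing of the bases further away. In the gene body, Nkx2-5 had 6346 bp in every library. Lmx1b had 52582 and 34604 bp of its body covered at E14 and 25162 and 22054 bp at E17. Sall1 had 14732 and 13516 bp at E14 and 10534 and 10889 bp at E17. Fgf8 had 6118 bp in both E14 libraries and 5699 and 4607 bp at E17. At these 3 genes the stages did not overlap in the body. That is a common case, since 57.1% of all genes with a peak in the body in any library were lower in both E17 libraries. Fgf10, the limb bud signal that Tbx4 and Tbx5 activate, had 439 and 1128 bp at E14 and 0 bp in both E17 libraries. En1, a gene of ventral limb and of trunk dermis, had 4403 and 2270 bp at E14 and 0 bp at E17. The pigment gene a (agouti), which acts in ventral dermis, had 4802 and 4189 bp at E14 and 2886 and 1725 bp at E17. Meis1, Meis2, Mef2c and Hapln1 had no peak in any library.

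For each of the 9 genes, the protein-coding gene outside the family with the most similar covered length near start sites over the 4 libraries was found by Euclidean distance. It was Tspan12 for Tbx15 (distance 51 bp), Gm884 for Tbx18 (212 bp), H2-Q6 for Tbx2 (276 bp) and Onecut1 for both Tbx20 (359 bp) and Pitx1 (671 bp). The distances were larger for Tbx5 (Pou2f2, 1217 bp), Tbx4 (Limch1, 1251 bp), Tbx1 (Pknox2, 1621 bp) and Tbx3 (Cd3g, 2516 bp). The distance was taken in covered bases, so it depends on the length of a gene's windows as well as on the pattern over the libraries. For genes covered almost throughout, such as Pitx1 and Tbx20, it mostly matches window length. The small distance of Tbx15 goes with its few covered bases.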

How the data were processed

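H3K27me3 ChIP-seq peak lists of 4 libraries were analysed, 2 labelled E14 and 2 labelled E17, with groups taken from the sample labels. The authors aligned reads with bowtie2 and called broad peaks in each library separately with MACS2 (broad cutoff 0.01) (Bowtie2 2.3.5.1, SAMtools 1.9, MACS2 2.2.7.1 and build mm10 are in the submitters' processing notes). The control used in the call is not given in the sources used here. The deposited lists give, for every peak, its fold enrichment over local background (a ratio) and its significance as −log10 of the p-value and of the q-value. The methods describe subsampling of E18.5 libraries to the depth of the others. No read counts are listed, so the depth behind each list and the precision of a single peak are unknown here.

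Start sites and gene bodies came from GENCODE vM21 (GRCm38), in which 55450 genes are annotated on the reference chromosomes. From the lists were computed the presence of peaks, the bases covered within 3000 bp of any start site and in the gene body, and the percentile of fold enrichment within a list. Stage means were compared by an exact permutation test over libraries, two-sided, with 3 splits. The members and gene lists were chosen with earlier results of these data known. Named genes were the 9 members, 10 other T-box and Pitx genes (1 more of the list is not reported here), 18 genes that act with members, each member's nearest protein-coding neighbours and, for each member, the gene with the most similar covered bases. The marker genes were 10 of dermal fibroblasts and 17 of other cell types. Alternatives varied the window, start sites, −log10 q-value, peak width, list length, ranking, joining gap and libraries. Python 3.11.15, numpy 2.4.6 and scipy 1.17.1 were used, and covered length and presence were recovered in 100% of 1600 simulated gene-by-list cases. The input library was not analysed here.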

Additional observations from a re-analysis of the deposited data

How the results depend on the processing

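The 7 genes marked in all 4 libraries numbered between 6 and 8 under every alternative run. The 2 genes marked at E14 only numbered 0 with a window of 1000 bp and with lists of equal covered length. They numbered 1 with peaks of at least 1000 bp, with lists of equal number, with an overlap of at least 500 bp, and with a window of 10000 bp, which was chosen after seeing the data. In lists of equal number Tbx15 was marked in no library, whereas Tbx18 was still marked at E14 only. The 5 genes with a lower covered length at E17 numbered 2 with a window of 1000 bp and 7 with the window of 10000 bp. They numbered 3 with peaks of at least 1000 bp and with lists of equal number, and 1 with lists of equal covered length (Tbx1). In turn without each library they numbered 5 to 8. The 2 genes with a lower covered length in the body numbered 2 to 8 without single libraries.

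The replicate block compares E17 with E14 within a replicate number. It gave 6 genes lower near start sites and 6 in the body, the latter added afterwards, and a median difference of -19.5%, as without it. The labels number the replicates and state no pairing. The deviations of the same-numbered libraries from their stage means had a correlation of 0.0981 across 3871 genes. This value cannot show a shift common to a whole library, and replicate 1 had the longer list at both stages. Whether same-numbered libraries were handled together was not tested. Without single libraries the median difference ran from -29.3% to -9.68%.

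The direction reversed at 2 genes. Tbx2 was higher at E17 by 9.51% with a window of 1000 bp, by 9.99% and 9.15% near its start without E14 replicate 1 and without E17 replicate 2, and by 3.87% and 4.44% in the body. Without single libraries its difference ran from -9.29% to 9.99% near the start and from -7.47% to 4.44% in the body. Tbx5 was higher at E17 by 48.9% with lists of equal covered length, where E14 replicate 2 had no peak there. The median percentile at E14 moved from 98.0 to 98.9 ranked by width and to 96.2 among peaks of at least 1000 bp. At E17 it moved from 93.8 to 92.1 by −log10 p-value, 98.3 by width and 87.7 among peaks of at least 1000 bp. The median domain span at E17 was 14960.5 bp, and 20267.5 bp with gaps of up to 10000 bp joined. Without single libraries these medians ranged from 97.4 to 98.5 and from 92.6 to 95.0 percentile, and from 15842 to 21189 bp and 13796 to 16125 bp. The cause of these shifts was not tested. Without read counts, depth and threshold cannot be separated from the length of the lists.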
